A study of Homo sapiens with 44 samples.

Results

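The C/EBP transcription factor genes CEBPA, CEBPB, CEBPD and CEBPG were followed as regions of open chromatin in Ccd18-Co, a fibroblast line from human colon. All rows of the deposited table whose gene label was CEBPA, CEBPB, CEBPD or CEBPG were taken, which gave 154 of 407383 peaks (19 for CEBPA, 6 for CEBPB, 98 for CEBPD and 31 for CEBPG). Rows were chosen by gene label alone. The only measured values used in the choice were those of the fourth IL-6 library, which was set aside because it was far shallower than the others and stood apart from them. It is left out of every IL-6 mean and test and shown on its own. The genes were picked with earlier results of these data known, so the calls below describe where their peaks stood in a fit over all peaks and are not independent evidence.

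Accessibility was measured by ATAC-seq, in which a transposase cuts open chromatin and adds sequencing adaptors. The 44 libraries formed 11 groups of 4 replicates. Cells of all groups were Ccd18-Co grown in medium with serum and then moved to serum-free medium. The unstimulated group received no cytokine, and every other group received a single cytokine. Per the study's methods, chromatin was isolated at a single time after stimulation, so earlier or later states were not measured. The dose was 10 ng/ml of OSM (oncostatin M), TNF, TGF-β1, IFNγ, IFNα, IL-22, IL-17A, IL-13 or IL-6, and, per the labels, 0.1 ng/ml of IL-1β. Captions of the study name a lower dose of IL-1β, and which was used was not settled here. The line is a monoculture, with no immune or epithelial cells added. The labels do not say whether replicates were separate cultures, so p-values measure the spread between these libraries, which may be technical. The plots write IL-1β, IFNα, IFNγ and TGF-β1 as IL1B, IFNA, IFNG and TGFB1.

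C/EBP proteins are basic leucine zipper factors that bind DNA as pairs. C/EBPβ and C/EBPδ are known for their induction by inflammatory cytokines and for their part in acute-phase and cytokine gene expression. C/EBPα is known for driving the differentiation of myeloid cells, hepatocytes and adipocytes. C/EBPγ lacks a typical activation domain and pairs with other family members and with ATF4. Cytokines of the IL-6 family, which includes OSM, signal through gp130 (the product of IL6ST) to STAT3, and IL-1β, TNF and IL-17A signal largely to NF-κB. CEBPD is a known target gene of STAT3.

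The 4 sequences below are shown because they lie at or beside the start-site peaks of the CEBPA, CEBPB and CEBPG genes described below. All are hg38, 5′ to 3′ along the gene. Capitals mark matches to 8 short motifs that were searched on both strands.

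CEBPA upstream, chr19:33302535-33302784, minus strand: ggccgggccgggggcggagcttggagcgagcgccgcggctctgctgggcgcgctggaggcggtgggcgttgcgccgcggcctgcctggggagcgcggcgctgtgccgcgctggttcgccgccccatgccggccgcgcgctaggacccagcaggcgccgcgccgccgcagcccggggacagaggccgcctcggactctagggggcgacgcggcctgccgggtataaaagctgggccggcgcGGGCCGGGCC

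CEBPB upstream, chr20:50190333-50190582, plus strand: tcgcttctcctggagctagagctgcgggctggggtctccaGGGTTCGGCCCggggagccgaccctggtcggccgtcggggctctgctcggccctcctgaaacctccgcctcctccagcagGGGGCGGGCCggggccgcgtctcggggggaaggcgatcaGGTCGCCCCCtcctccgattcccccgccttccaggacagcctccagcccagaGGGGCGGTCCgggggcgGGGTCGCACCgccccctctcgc

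CEBPG upstream, chr19:33373459-33373684, plus strand: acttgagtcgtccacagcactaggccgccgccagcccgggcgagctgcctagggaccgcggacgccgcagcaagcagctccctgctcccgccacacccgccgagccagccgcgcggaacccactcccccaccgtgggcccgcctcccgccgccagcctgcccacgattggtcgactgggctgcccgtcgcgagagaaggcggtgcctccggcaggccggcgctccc

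CEBPG +0.5 kb, chr19:33373945-33374112, plus strand: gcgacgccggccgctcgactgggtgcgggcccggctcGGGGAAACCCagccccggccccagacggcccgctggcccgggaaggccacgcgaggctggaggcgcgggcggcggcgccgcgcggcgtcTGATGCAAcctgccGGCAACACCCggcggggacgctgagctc

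The first 3 stretches are from RefSeq promoters (build hg38). They end at the RefSeq start of CEBPA, at the first RefSeq start of CEBPB, which is just before the CEBPB start-site peak, and at the GENCODE start of CEBPG. The last is the part of a CEBPG peak that comes before the second RefSeq start of that gene. The motifs were C/EBP (TTGCNNAA), the ATF4-C/EBP composite (TGATGCAA), GAS for STAT factors (TTCNNNGAA), STAT6 (TTC and GAA with any 4 bases between), AP-1 (TGANTCA), NF-κB (GGG and CC with any 5 bases between), CRE (TGACGTCA) and ISRE (GAAA and GAAA with any 2 bases between). The GAS and STAT6 motifs share their outer letters and differ in the gap between them. All 4 stretches were rich in G and C, at 81.2%, 75.6%, 75.7% and 80.4% in the order shown. The CEBPA stretch held a single match to the NF-κB letters, the CEBPB stretch held 6, the first 2 of which overlap, and the CEBPG upstream stretch held no match to any of the 8 motifs. In 35116 RefSeq windows of the 250 bases before a start, 54.4% held the NF-κB letters and 9.05% the C/EBP letters. The CEBPG +0.5 kb stretch held TGATGCAA, which was found in 0.93% of central windows of 168 bases over all 407383 peaks, together with 2 NF-κB matches, which 26.8% of those windows held. A match is a run of letters and not a bound site. No sequence is shown for CEBPD.

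Libraries held 148.8 to 823.1 Mb of coverage in peaks, and the shallowest was IL-6 replicate 4, in which 27.1% of peaks had no coverage. In the other libraries that share ran from 0.88% to 17.03%. It was 9.64% to 17.03% in OSM libraries, 0.88% to 8.17% in TGF-β1 libraries and 3.53% to 10.85% in unstimulated libraries, and its part in the results for those cytokines was not tested. No pair of libraries held identical values. Of 8 fibroblast markers, 6 had a promoter-class peak, from 0.899 coverage per Mb for LUM to 23.8 for COL1A1 in unstimulated cells. None of 5 epithelial markers had such a peak in the table, 1 of 5 leukocyte markers did (CD14 at 0.781), and all 4 endothelial markers did (0.538 for VWF to 1.88 for CDH5). The summed level of the fibroblast markers ran from 51.9 with IL-1β to 79.4 with IL-13, against 64.8 unstimulated, that of the endothelial markers from 2.17 with IL-17A to 3.58 unstimulated, and CD14 from 0.781 unstimulated to 2.10 with IL-13. Their part in the results below was not tested.

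Coverage per Mb is the summed base coverage of a peak per Mb of coverage in all peaks of its library, divided by a composition factor. Levels are on that scale. Changes are log2 differences after adding 0.5 to it, which understates the change of low peaks, and peaks are named as raised or lowered if limma's Benjamini-Hochberg adjusted p over all 407152 tested peaks of a contrast was under 0.05. All 154 C/EBP peaks were tested, and 71 had a mean of at least 1 per Mb. Every peak is 500 bases wide. Distances are from the peak's centre to the gene's start site in GENCODE v44, positive in the direction of transcription.

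Most of the labelled peaks lay outside the gene whose name they carried. By the deposited classes, 8 were promoter, 15 exonic, 107 intronic and 24 distal. None of the 4 genes is long (CEBPA chr19:33299934-33302534, CEBPB chr20:50190830-50192668, CEBPD chr8:47736913-47738164, CEBPG chr19:33373685-33382686), and 30 of the 154 peaks had their centre within 5 kb of the start site. Of the 98 CEBPD-labelled peaks, 85 overlapped SPIDR, a DNA repair scaffold gene whose 3′ end points at CEBPD, and 3 overlapped CEBPD itself. Of the 31 CEBPG-labelled peaks, 19 overlapped PEPD, which encodes a dipeptidase. The label names a nearby gene and does not show that a peak acts on it.

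Across the 11 groups, 36 of the 154 peaks (23.4%) differed by the F-test, where 23.1% of all tested peaks did. Of these, 26 carried the CEBPD label, 6 CEBPG, 2 CEBPA and 2 CEBPB. The share of the whole set lay near that of all peaks. Within 5 kb of a start site 13 of 30 peaks differed, and beyond it 23 of 124 did. That split was not matched for coverage. In a fit of only the 167674 peaks with a mean of at least 1 per Mb, 87337 differed by the F-test.

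The 10 cytokines were each compared with the same 4 unstimulated libraries, so the counts of different cytokines share their controls. With OSM, 14 C/EBP peaks were raised and 1 lowered, where 4.59% of all tested peaks were raised and 1.31% lowered. With TGF-β1, 0 were raised and 12 lowered, against 1.30% and 3.19% of all peaks. With TNF, 2 were raised and 8 lowered, against 2.95% and 1.65%. With IL-1β, 3 were raised and 4 lowered, against 1.65% and 1.94%. The OSM count of 15 fell to 9 under median-of-ratios scaling and 8 under loess offsets, and the TGF-β1 count of 12 fell to 7 under loess offsets. The split of all calls also moved with the scaling for OSM and TGF-β1. Of all OSM calls 77.8% were raised here, and 52.6% to 57.0% under library totals, median-of-ratios scaling, a factor from fully covered peaks or offsets fitted by loess. The median change of all tested peaks with OSM was -0.105 here, -0.216 under median-of-ratios scaling and 0.003 under loess. Of all TGF-β1 calls 29.0% were raised here and 48.8% to 59.8% under those scalings, and the median moved from 0.046 to 0.152 under median-of-ratios scaling. In the fit of only the 167674 peaks with a mean of at least 1 per Mb, the medians had the opposite sign. They were 0.193 with OSM and -0.132 with TGF-β1. The median therefore depends on coverage as well as on scaling, and no single baseline was settled for changes with these cytokines.

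The other 6 cytokines gave few calls. With IFNγ, 5 C/EBP peaks were raised and 0 lowered, against 1.49% and 0.307% of all peaks. With IL-13, 2 were raised and 1 lowered, against 0.922% and 0.813%. With IL-17A, 2 were raised and 0 lowered, against 0.0408% and 0.00565%. With IL-22, 1 was raised and 0 lowered, against 0.115% and 0.00688%. With IL-6, limma called none of the 154, and 7 had an unadjusted p under 0.05. In all peaks 0.00246% were raised and 0.00123% lowered with IL-6. With IFNα limma called none, 13 had an unadjusted p under 0.05, and 0.446% and 0.386% of all peaks were raised and lowered. Reweighting libraries by quality gave 1 call each for IL-6 and IFNα. In all, 22 of the 154 peaks were called for at least 1 cytokine and 16 for 2 or more.

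The CEBPD start-site peak was raised with 5 cytokines, of which 3 calls passed under all alternatives. It spans chr8:47737868-47738368, over the UTR and coding exon of this single-exon gene, and was singled out after its values were seen. Unstimulated libraries held 10.8, 9.43, 7.56 and 8.56 coverage per Mb. With OSM it held 23.9, 25.6, 22.8 and 17.4, and with IL-22 it held 20.0, 22.3, 19.6 and 16.9. Every one of these 8 libraries lay above every unstimulated library. The change was 1.26 with OSM (SE 0.17, adjusted p = 5.4e-10 by limma) and 1.08 with IL-22 (SE 0.17, adjusted p = 6.67e-05 by limma). Under a GC correction the OSM change was 0.78 (adjusted p = 0.000233) and the IL-22 call was lost (0.72, adjusted p = 0.0731).

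IL-13, IFNγ and IL-17A also raised the CEBPD start-site peak, by 0.89 (adjusted p = 8.99e-05), 0.90 (adjusted p = 4.37e-05) and 0.86 (adjusted p = 0.00482) on the log2 scale in limma's test. The IL-17A call was lost under a GC correction (0.67, adjusted p = 0.105) and without unstimulated replicate 3 or IL17A replicate 3. Libraries ran from 13.3 to 21.4 with IL-13, from 12.0 to 21.7 with IFNγ and from 14.2 to 21.1 with IL-17A, all above the unstimulated range. The 3 IL-6 libraries held 15.1, 18.9 and 15.1 and also did not overlap the unstimulated ones, with a change of 0.82 that missed the threshold (adjusted p = 0.105). IL-6 replicate 4 held 20.1. TNF (0.47, adjusted p = 0.0898), IFNα (0.51), IL-1β (0.34) and TGF-β1 (0.15) did not pass and overlapped the unstimulated libraries. In order of mean level the groups ran OSM, IL-22, IFNγ, IL-13, IL-17A, IL-6, IFNα, TNF, IL-1β, TGF-β1 and unstimulated, and each overlapped its neighbour. The CEBPD promoter-class peak 0.86 kb upstream differed across the groups by the F-test (adjusted p = 0.000101), but no cytokine was called against unstimulated. Its means ran from 5.37 ± 1.37 with TGF-β1 to 11.6 ± 1.46 with OSM, against 8.09 ± 1.83 unstimulated (SD, n = 4).

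**Figure D1:**
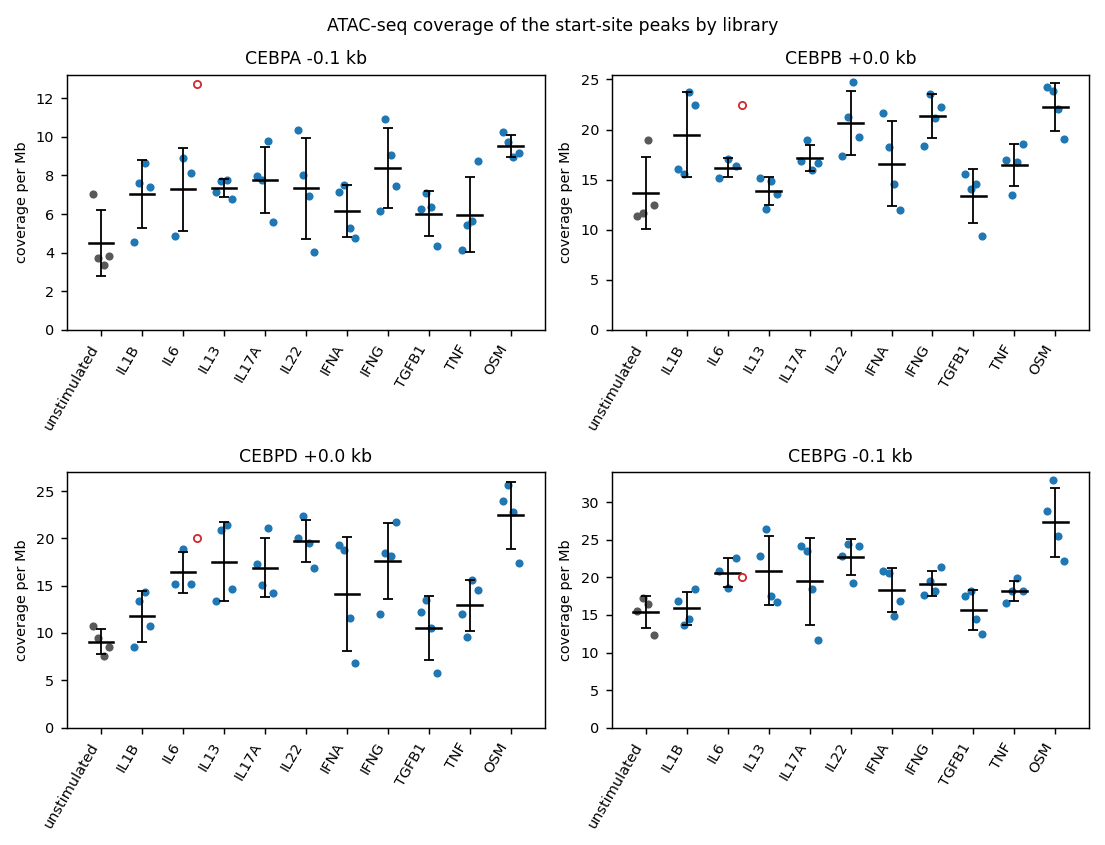
Coverage per Mb at the start-site peaks of CEBPA, CEBPB, CEBPD and CEBPG in every library, by group. Filled points are libraries, the bar and whiskers are the mean and SD, and the open point is IL-6 replicate 4, which enters no mean. All 4 OSM libraries lie above all 4 unstimulated libraries in each panel.

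The CEBPB start-site peak (chr20:50190628-50191128, 0.05 kb from the start, over its UTR and coding exon and in an intron of the antisense CEBPB-AS1) was raised with OSM, IFNγ and IL-1β. Unstimulated libraries held 11.4, 11.7, 19.0 and 12.5. OSM libraries held 24.3, 23.8, 22.1 and 19.0 and the lowest lay only just above the highest unstimulated library, with a change of 0.71 (SE 0.15, adjusted p = 0.000371 by limma). IFNγ libraries held 18.4, 23.6, 21.2 and 22.3, where the lowest fell below the highest unstimulated library (change 0.65, adjusted p = 0.00297 by limma). IL-1β libraries held 16.1, 15.6, 23.8 and 22.5 and overlapped too (change 0.51, adjusted p = 0.0336 by limma). The IL-1β call was lost without unstimulated replicate 1, 2 or 4 or IL1B replicate 3 or 4 (adjusted p up to 0.235) and under a GC correction (adjusted p = 0.158). The OSM call was lost under loess offsets (0.37, adjusted p = 0.133) and a correction for GC content (0.40, adjusted p = 0.103). The IFNγ call passed under all alternatives tried, with adjusted p up to 0.038. With IL-22 the change was 0.60 (adjusted p = 0.0684) and with TNF 0.28 (adjusted p = 0.405), and neither passed.

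The other CEBPB peaks lay upstream, along CEBPB-AS1. The promoter-class peak 0.81 kb upstream did not differ across the groups (F-test adjusted p = 0.242), with means from 1.43 ± 0.26 with IL-6 (SD, n = 3) to 3.035 ± 0.68 with IL-1β (SD, n = 4). A low peak 3.14 kb upstream passed the F-test (adjusted p = 0.0322) with no cytokine called, and its lowest mean was with TGF-β1, at 0.782 ± 0.14 against 1.92 ± 1.07 unstimulated (SD, n = 4).

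The CEBPA promoter peak (chr19:33302403-33302903, 0.12 kb upstream, over the first bases of CEBPA and an exon of the divergent transcript CEBPA-DT) was raised with OSM and IFNγ. Unstimulated libraries held 7.03, 3.73, 3.36 and 3.84, so replicate 1 stood well above the others. OSM libraries held 10.3, 9.73, 8.97 and 9.18, all above unstimulated (change 1.06, SE 0.22, adjusted p = 0.000143 by limma). IFNγ libraries held 6.14, 10.9, 9.08 and 7.46 and overlapped unstimulated replicate 1 (change 0.86, adjusted p = 0.00797 by limma). Changes with the other 8 cytokines were all above 0, from 0.38 with TNF to 0.76 with IL-17A, and none passed. Both calls were lost under a GC correction (OSM 0.59, adjusted p = 0.0825, and IFNγ 0.66, adjusted p = 0.0984), and the IFNγ call was also lost without unstimulated replicate 3 or IFNG replicate 2. IL-6 replicate 4 held 12.7, above every other library.

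Farther from CEBPA, an intergenic peak 9.11 kb downstream of the start (chr19:33293174-33293674) had the smallest F-test p of the 19 (adjusted p = 5.69e-08). Its highest mean was with OSM (11.5 ± 1.28) and its lowest with TGF-β1 (5.30 ± 0.48) and IFNα (5.30 ± 1.22), with 8.03 ± 1.94 unstimulated (SD, n = 4). No cytokine passed against unstimulated, where the changes ran from -0.55 with IFNα to 0.51 with OSM.

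The CEBPG start-site peak (chr19:33373353-33373853, over its UTR) was raised with OSM alone among the 10 cytokines. OSM libraries held 28.9, 33.0, 25.5 and 22.2 against 15.6, 17.2, 16.4 and 12.3 unstimulated, with no overlap (change 0.81, SE 0.15, adjusted p = 1.36e-05 by limma). The IL-6 (18.6 to 22.6 in 3 libraries), IL-22 (19.3 to 24.5) and IFNγ (17.6 to 21.4) libraries also lay above the unstimulated range, with changes of 0.42, 0.55 and 0.32 that did not pass. Just downstream, the peak at 0.51 kb (chr19:33373944-33374444), which holds the TGATGCAA run shown above, was raised with OSM (10.2, 12.2, 7.66 and 8.78 against 2.73, 4.21, 5.03 and 5.20, change 1.11, adjusted p = 9.53e-05 by limma). It was also raised with IL-13 (5.31, 6.94, 10.4 and 9.16, change 0.81, adjusted p = 0.0233 by limma), a call that was lost without unstimulated replicate 1 and without IL13 replicate 3 or 4, and under a GC correction. A CEBPG intronic peak at 2.96 kb was raised with OSM as well, by 1.00 (adjusted p = 0.00521 by limma), at 5.17 to 6.70 against 1.99 to 3.91 unstimulated. The promoter-class peak 1.18 kb upstream was near the floor of detection, with 0.272 per Mb over all libraries.

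With OSM the start-site peaks of all 4 genes were raised, by 0.71 to 1.26. OSM also raised the highest promoter-class peak of 15.6% of 16765 genes. The C/EBP start-site peaks have 72.2% to 78.8% GC, and only that of CEBPA is of the promoter class. In 8658 peaks of at least 70% GC with a mean of at least 1 per Mb, the median change was 0.41 with OSM and 0.30 with IL-22. The 90th percentile was 0.81 with OSM and 0.72 with IL-22. That median was also above 0 at 0.197 with IL-6, 0.195 with IL-13, 0.159 with IFNγ and 0.148 with IL-17A. It was 0.135 with IL-1β, 0.128 with TNF, 0.105 with IFNα and -0.135 with TGF-β1. In 159015 peaks of lower GC with the same minimum mean, not matched for coverage, the medians were 0.18 with OSM and 0.065 with IL-22. With the other cytokines they ran from -0.132 with TGF-β1 to 0.033 with IL-6. The part of GC content in the start-site results was not tested beyond the GC correction. Under it the OSM change fell from 1.26 to 0.78 at CEBPD and from 0.81 to 0.53 at CEBPG (adjusted p = 0.0086), with both still called. The OSM calls at CEBPA (0.59, adjusted p = 0.0825) and CEBPB (0.40, adjusted p = 0.103) were lost under it in limma's test. The lowest OSM change at CEBPG was 0.46 under loess offsets (adjusted p = 0.0183).

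Downstream of CEBPD, 3 neighbouring peaks in the last part of SPIDR moved in opposite directions with different cytokines. The strongest was the peak at 3.51 kb (chr8:47734402-47734902, in a SPIDR intron), which had the largest F of the 154 (34.4, adjusted p = 7.51e-48). Unstimulated libraries held 10.3, 8.12, 10.0 and 11.1. TNF libraries held 1.70, 1.17, 2.66 and 2.11, TGF-β1 libraries 3.03, 3.65, 3.59 and 1.99, and IL-1β libraries 6.35, 4.15, 3.05 and 4.91. OSM libraries held 18.7, 22.7, 17.8 and 19.9. None of these 4 groups overlapped the unstimulated libraries, and OSM did not overlap IL-17A, the group next below it.

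The changes at the 3.51 kb peak of CEBPD were -2.14 with TNF (SE 0.21, adjusted p = 1.15e-18), -1.56 with TGF-β1 (SE 0.21, adjusted p = 5.39e-10), -1.06 with IL-1β (SE 0.21, adjusted p = 9.87e-05) and 0.96 with OSM (SE 0.21, adjusted p = 0.000494) in limma's test. All 4 calls held under the 13 alternatives and without any single library. Groups with smaller changes filled the range between them, with means of 12.1 ± 1.65 for IL-17A, 10.4 ± 2.12 for IL-13, 9.21 ± 0.56 for IL-22, 7.30 ± 2.32 for IFNγ and 6.11 ± 1.11 for IFNα (SD, n = 4), and 7.92 ± 0.93 for IL-6 (SD, n = 3). IL-6 replicate 4 held 6.90. IFNα libraries did not overlap unstimulated ones, but their change of -0.66 did not pass (adjusted p = 0.12).

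The peaks to either side of it also had their highest mean with OSM and their lowest 2 with TNF and TGF-β1, and they were singled out after their values were seen. At 4.52 kb (chr8:47733397-47733897, in a SPIDR intron) the CEBPD-labelled peak held 3.22, 4.12, 3.51 and 2.84 unstimulated, 10.5, 12.2, 8.43 and 10.3 with OSM, 0.570, 1.51, 1.50 and 1.63 with TNF and 2.02, 1.96, 0.963 and 1.54 with TGF-β1. It was raised by 1.47 with OSM (adjusted p = 6.01e-06) and lowered with TNF (-1.16, adjusted p = 0.000588) and TGF-β1 (-0.91, adjusted p = 0.0168) in limma's test. None of the 3 groups overlapped the unstimulated libraries. The TGF-β1 call was lost under 3 of the 13 alternatives, all of them scalings, and without unstimulated replicate 2 or TGFB1 replicate 3 (adjusted p up to 0.127).

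At 2.78 kb (chr8:47735130-47735630, over a coding exon and UTR of SPIDR) the CEBPD-labelled peak held 12.5 to 14.8 unstimulated, 5.31 to 7.33 with TGF-β1, 5.20 to 9.55 with TNF and 18.5 to 25.3 with OSM. It was lowered with TGF-β1 (-0.96, adjusted p = 1.84e-05) and TNF (-0.92, adjusted p = 3.38e-05) and raised with OSM (0.64, adjusted p = 0.0116) in limma's test. The OSM call was lost under library totals, median-of-ratios scaling, the factor from fully covered peaks and loess offsets (0.31 to 0.43) and without OSM replicate 4. IL-6 was called at none of the 3 peaks. Its changes were -0.03, -0.30 and 0.16 at 2.78, 3.51 and 4.52 kb, with standard errors of 0.19, 0.23 and 0.28.

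**Figure D2:**
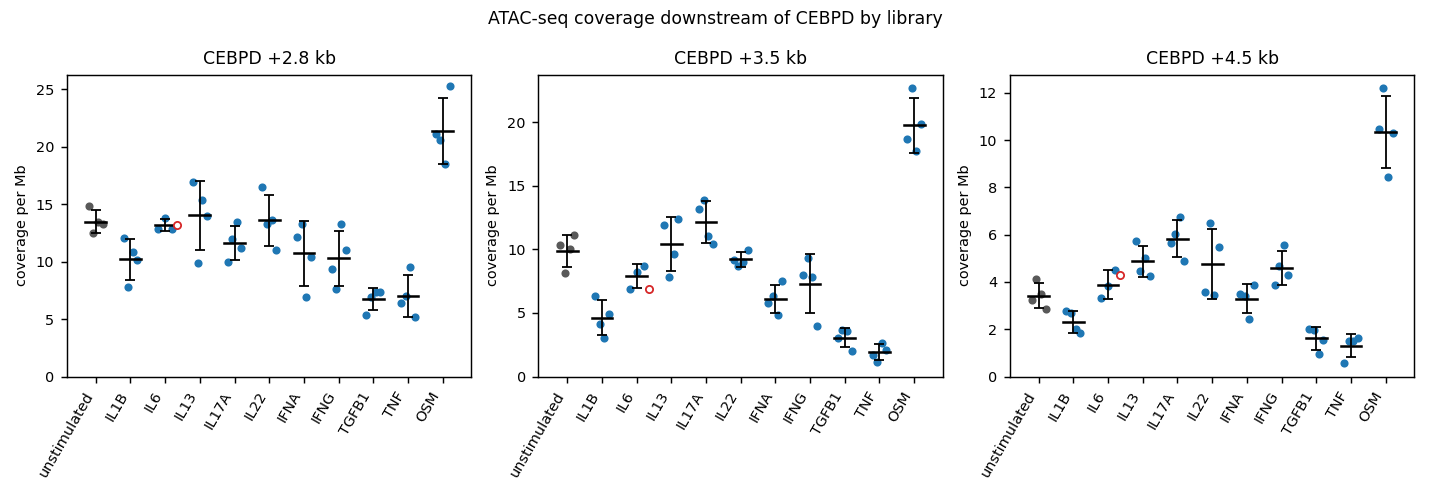
Coverage per Mb of the 3 CEBPD-labelled peaks 2.78, 3.51 and 4.52 kb downstream of the CEBPD start site in every library, by group, with mean and SD. The open point is IL-6 replicate 4. OSM libraries are the highest in each panel, and TNF and TGF-β1 libraries lie below all unstimulated libraries.

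The CEBPD start-site peak and the downstream peaks were called with different cytokines. TNF lowered the 3 downstream peaks, while the start-site peak changed by 0.47 with no call. TGF-β1 lowered all 3, with 0.15 at the start site. IL-13, IL-22 and IFNγ raised the start-site peak, with changes at 3.51 kb of 0.06, -0.09 and -0.47 and no call. IL-17A raised it too, with changes of -0.21, 0.28 and 0.69 at 2.78, 3.51 and 4.52 kb that did not pass, and its libraries at 4.52 kb (4.88 to 6.76) lay above all unstimulated libraries. OSM was the only cytokine called as raised at all 4 peaks. The difference between peaks in their response was not tested.

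Farther into SPIDR, the CEBPD-labelled peaks fell into different patterns. A pair of strong peaks lay 77.7 and 78.3 kb from the CEBPD start, over an annotated SPIDR UTR and within 1 kb of a SPIDR transcript start. At the stronger (chr8:47659649-47660149) unstimulated libraries held 32.3 to 35.7, IL-1β libraries 19.0 to 24.9, TNF libraries 18.0 to 24.8 and TGF-β1 libraries 15.7 to 24.1. None of the 3 overlapped unstimulated, and the changes were -0.62 (adjusted p = 6.02e-05), -0.65 (adjusted p = 1.45e-05) and -0.76 (adjusted p = 2.74e-07) in limma's test. The weaker neighbour (chr8:47660191-47660691) was also lowered with IL-1β (-1.10), TNF (-0.80) and TGF-β1 (-0.88). There the TNF call was lost without TNF replicate 1 (adjusted p = 0.0666) and the TGF-β1 call without TGFB1 replicate 2 (adjusted p = 0.0839). OSM was called at neither peak, with changes of 0.27 and 0.15.

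The strongest of 3 adjoining called peaks, 225.6 kb from the CEBPD start and inside a SPIDR intron (chr8:47512358-47512858), held 26.4 to 40.5 unstimulated. IL-1β libraries held 17.9, 13.7, 15.1 and 10.6, TGF-β1 libraries 18.3, 17.6, 21.7 and 16.4 and TNF libraries 15.2, 22.7, 19.0 and 19.9, all below that range. The CEBPD-labelled peak was lowered with IL-1β (-1.18, SE 0.13, adjusted p = 5.32e-16), TGF-β1 (-0.80, adjusted p = 1.44e-07) and TNF (-0.76, adjusted p = 4.99e-07) in limma's test. OSM libraries held 38.5 to 50.5 and overlapped unstimulated (0.50, adjusted p = 0.00365), a call that was lost under 4 of the 13 alternatives and without unstimulated replicate 4. A peak beside it (chr8:47512902-47513402) held 6.00 to 8.26 unstimulated. It was lowered with TNF (2.28 to 4.44, change -1.02, adjusted p = 0.000632) and TGF-β1 (2.77 to 4.46, change -0.82, adjusted p = 0.0123) in limma's test. The next (chr8:47513436-47513936) held 12.2 to 14.5 unstimulated. It was lowered with TGF-β1 (6.56 to 11.1, change -0.52, adjusted p = 0.0456) and raised with OSM (18.0 to 23.3, change 0.60, adjusted p = 0.0103) in limma's test. Neither of these neighbours was followed singly through the alternatives.

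Other peaks in SPIDR were raised, some with the same cytokines that lowered those above. At 213.0 kb (chr8:47524947-47525447) the CEBPD-labelled peak rose from 2.84 to 4.15 unstimulated to 14.0, 10.9, 12.7 and 8.35 with IL-1β (change 1.57, SE 0.26, adjusted p = 8.86e-07 by limma) and to 9.81, 13.2, 9.80 and 7.55 with IL-17A (change 1.39, adjusted p = 0.00185 by limma). With TNF it held 4.54 to 6.33, above every unstimulated library, but the change of 0.57 did not pass (adjusted p = 0.27). TGF-β1 lowered it to 0.966 to 2.28 (change -1.02, adjusted p = 0.00526 by limma). The IL-17A call was lost without IL17A replicate 2 (adjusted p = 0.0534), and an OSM call at 0.78 (adjusted p = 0.0476) was lost under 7 of the 13 alternatives and in 6 of the 8 fits that left out an OSM or unstimulated library.

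At 85.3 kb (chr8:47652653-47653153) the CEBPD-labelled peak was raised with TNF (7.90, 6.33, 6.14 and 5.85 against 3.19, 2.24, 1.26 and 1.33 unstimulated, change 1.55, adjusted p = 6.73e-06 by limma) and IL-1β (6.24, 5.12, 5.13 and 5.14, change 1.30, adjusted p = 0.000435 by limma). OSM (1.06, adjusted p = 0.00711) and IFNγ (0.97, adjusted p = 0.0354) were called too, the OSM call being lost under 4 scalings (adjusted p up to 0.0865) and without unstimulated replicate 3 or 4 or OSM replicate 1. The IFNγ call was lost without any of unstimulated replicates 3 and 4 or IFNG replicates 1, 3 and 4, with a pseudocount of 0.1 and with all 44 libraries. At 53.8 kb (chr8:47684161-47684661) the peak was raised with OSM (10.3 to 13.8, change 1.09, adjusted p = 0.00013 by limma) and IFNγ (9.48 to 11.0, change 0.91, adjusted p = 0.0053 by limma) against 3.72 to 5.86 unstimulated. The IFNγ call there was lost without unstimulated replicate 1.

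A peak at 110.4 kb (chr8:47627547-47628047) was the only C/EBP peak lowered with OSM. It held 19.8, 17.1, 19.6 and 17.7 against 32.8, 30.2, 31.7 and 32.4 unstimulated (change -0.76, SE 0.13, adjusted p = 1.02e-06 by limma). This CEBPD-labelled peak was also lowered with TGF-β1 (18.4 to 22.2, change -0.67, adjusted p = 2.9e-05 by limma) and IL-13 (21.0 to 27.0, change -0.45, adjusted p = 0.0293 by limma). The TGF-β1 call was lost under loess offsets (-0.33), and the IL-13 call was lost under a GC correction and in 6 of 8 fits that left out a library. A low peak 8.08 kb from the CEBPD start (chr8:47729832-47730332) was raised with TNF (1.66 to 3.79 against 0.256 to 1.43 unstimulated, change 1.31, adjusted p = 0.0176 by limma).

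**Figure D3:**
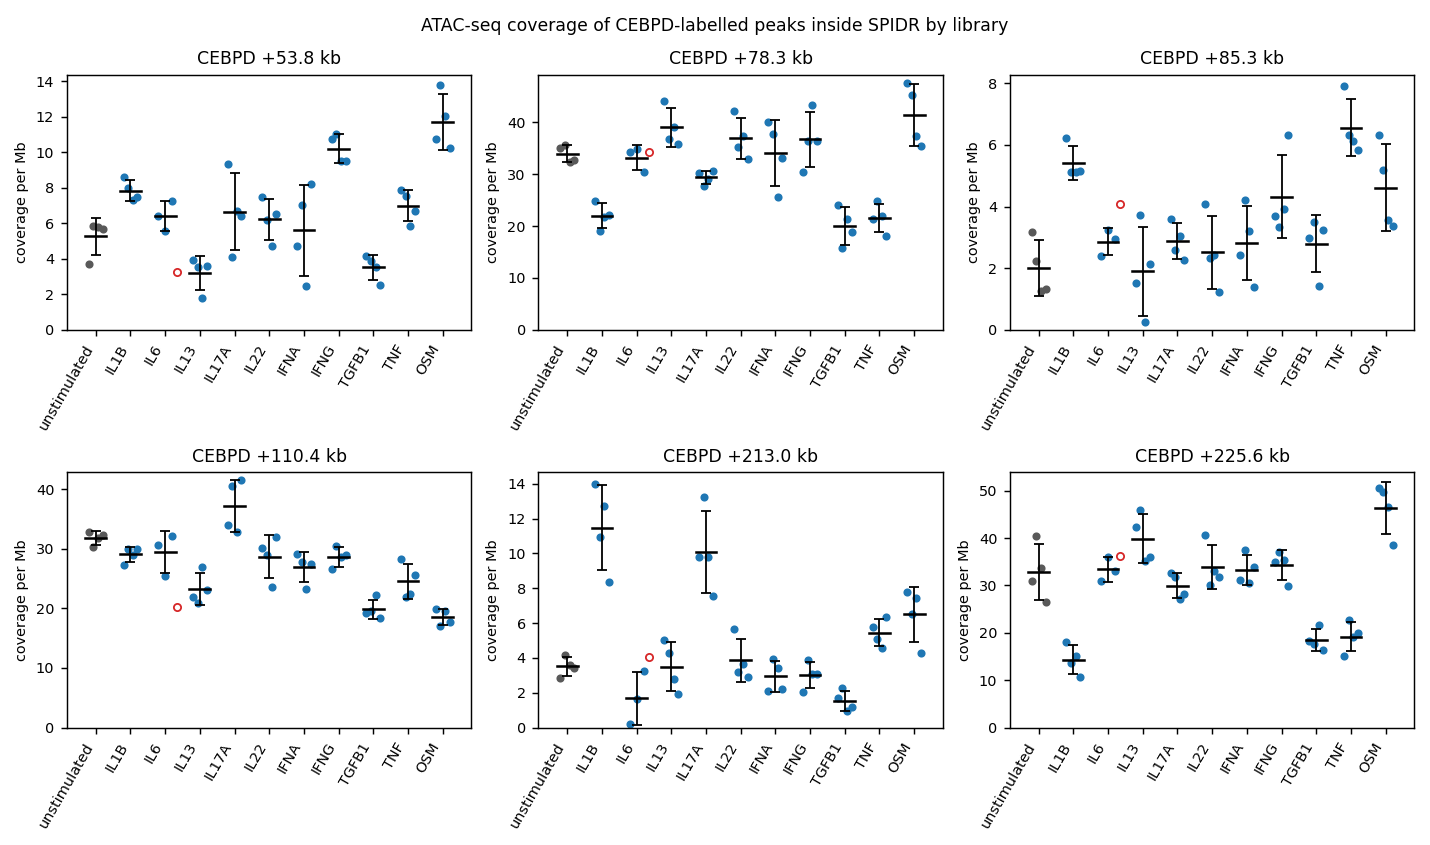
Coverage per Mb of 6 CEBPD-labelled peaks inside SPIDR, 53.8 to 225.6 kb from the CEBPD start site, in every library, by group, with mean and SD. The open point is IL-6 replicate 4. The IL-1β, TGF-β1 and TNF libraries lie below all unstimulated libraries at 78.3 and 225.6 kb, and the IL-1β and IL-17A libraries lie above them at 213.0 kb.

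**Figure D4:**
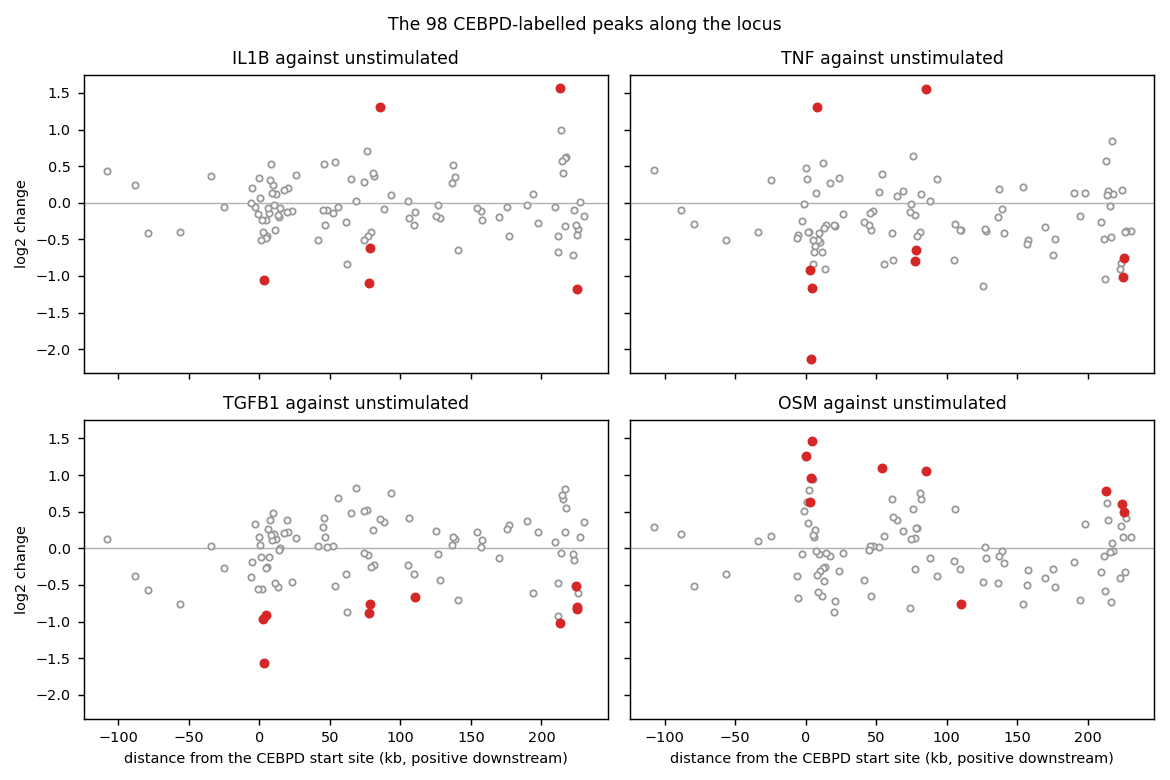
The log2 change of the 98 CEBPD-labelled peaks against distance from the CEBPD start site in kb, for IL-1β, TNF, TGF-β1 and OSM. Filled points passed an adjusted p of 0.05. With TGF-β1 all 10 called peaks are lowered, and with OSM 9 of 10 are raised.

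Over all 98 CEBPD-labelled peaks the median change was -0.32 with TNF, where the median of all tested peaks was -0.025. It was -0.09 with IL-1β, 0.02 with TGF-β1 and -0.04 with OSM, against 0.006, 0.046 and -0.105 for all peaks. For the 31 CEBPG-labelled peaks the TNF median was -0.265. The calls at CEBPG-labelled peaks inside PEPD were all lowered. With TNF a low peak over a PEPD exon at 16.6 kb (chr19:33390059-33390559) held 0.560, 0.398, 0.147 and 0.435 against 1.47 to 1.97, where 3 of the 4 TNF libraries were at or under 3 reads (change -1.29, adjusted p = 0.00767 by limma, lost without TNF replicate 3). With TGF-β1 a PEPD intronic peak at 33.3 kb (chr19:33406763-33407263) held 1.20 to 2.38 against 2.97 to 5.59 (change -1.01, adjusted p = 0.00835 by limma). Another at 20.8 kb (chr19:33394254-33394754) was called at -0.63 (adjusted p = 0.047), but this was lost under 8 of the 13 alternatives and in 6 of 8 fits that left out a library, and its TGF-β1 libraries overlapped the unstimulated ones.

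Cytokines of related signalling were also compared directly. TNF against IL-1β gave 0 raised and 2 lowered C/EBP peaks, where 1.27% and 0.283% of all peaks were raised and lowered. The CEBPD-labelled peak at 3.51 kb was lower with TNF than with IL-1β by -1.08 (SE 0.21, adjusted p = 0.000151 by limma), and its TNF libraries (1.17 to 2.66) did not overlap its IL-1β libraries (3.05 to 6.35). The CEBPD-labelled peak at 213.0 kb was lower by -0.999 (adjusted p = 0.0145 by limma), a call lost without IL1B replicate 1 or 3 or TNF replicate 2 or 3 and with a pseudocount of 0.1.

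OSM against IL-6 gave 6 raised and 2 lowered C/EBP peaks, all of them CEBPD-labelled, against 2.00% and 0.367% of all peaks. The largest was at 213.0 kb (1.97, SE 0.28, adjusted p = 1.76e-08 by limma), where IL-6 libraries held 0.174, 1.64 and 3.23 and OSM libraries 4.27 to 7.78. The lowest of these IL-6 libraries was at or under 3 reads. IL-6 replicate 4 held 4.07 there, within the unstimulated range. That change ran from 1.28 to 2.51 over the alternatives and left-out libraries. The CEBPD-labelled peaks at 3.51 kb (1.27, adjusted p = 2.22e-05) and 4.52 kb (1.30, adjusted p = 0.000838) were higher with OSM and the peak at 110.4 kb was lower (-0.65, adjusted p = 0.000611), and these 4 calls held in every fit tried. The calls at 2.78 kb (0.67), 53.8 kb (0.82) and 225.6 kb (0.46) were less steady. Each was lost under 4 scalings and in 6 of the 7 fits that left out an OSM or IL-6 library. With a pseudocount of 0.1, limma also lost the calls at 53.8 kb (adjusted p = 0.0578) and 225.6 kb (adjusted p = 0.0521). Without IL6 replicate 1, 2 or 3 or OSM replicate 1 or 2 the count fell to 4. The last was a peak 5.47 kb upstream (chr8:47743380-47743880), lower with OSM by -1.09 (adjusted p = 0.0339). At the CEBPD start site itself OSM exceeded IL-6 by 0.44 with no call (SE 0.18, adjusted p = 0.235), which does not show that they act alike there.

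**Figure D5:**
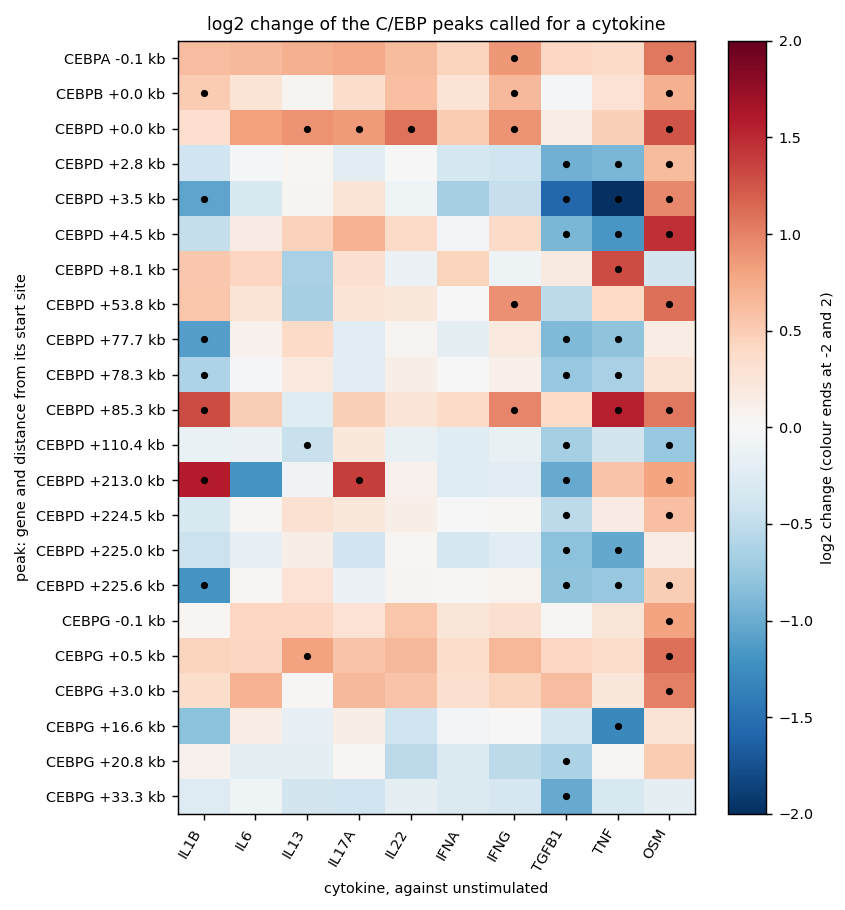
Log2 change against unstimulated of the 22 C/EBP peaks called for at least 1 cytokine, ordered by gene and distance from its start site. Colour gives the change, and a black dot marks an adjusted p under 0.05. The OSM column holds 14 raised peaks and the TGF-β1 column 12 lowered peaks.

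Other genes of the pathway were read at their promoter-class peak with the highest mean. Over the 16765 genes with such a peak, OSM raised 15.6% and lowered 0.459% (median 0.251), TGF-β1 raised 0.459% and lowered 14.9% (median -0.242), TNF raised 2.40% and lowered 0.960% (median -0.002) and IL-1β raised 1.41% and lowered 2.14% (median -0.039). The shares raised with IFNγ and IL-13 were 2.03% and 1.71%, and those lowered 0.262% and 0.495%. The lists below are small and are to be read against these shares. Among 6 dimer partners and regulators, TGF-β1 lowered TRIB1 (-0.39, adjusted p = 0.00863 by limma) and TRIB2 (-0.63, adjusted p = 0.0401 by limma), which encode pseudokinases that promote the breakdown of C/EBPα, and OSM raised TRIB1 (0.50, adjusted p = 0.00018 by limma). No other cytokine gave a call in that list, whose median was -0.40 with TGF-β1 and 0.33 with OSM. Of 9 receptors and signalling genes, OSM raised 6 and lowered 0, namely SOCS3 (1.13, the feedback inhibitor of gp130 signalling), IL6ST (0.80), TNFRSF1A (0.63), OSMR (0.49, an OSM receptor chain), IL17RC (0.44) and STAT3 (0.38), with a median of 0.44 over the 9. TGF-β1 lowered 1 of the 9, STAT3 (-0.38), with a median of -0.345 over the 9. In the same list IFNγ raised IL1R1 (0.64) and TNF raised IL6ST (0.40).

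Of 20 inflammatory and acute-phase targets, 18 had a promoter-class peak. TNF raised 8 of them and lowered 0, led by the neutrophil chemokine CXCL8 (3.14, adjusted p = 1.62e-21 by limma) and CXCL1 (1.51), with ORM1 (1.34), CCL2 (1.02), NFKBIZ (0.98), CXCL5 (0.89), IL1B (0.86) and CSF3 (0.58). IL-1β raised CXCL8 (2.57), CXCL1 (1.13) and CSF3 (0.84), OSM raised ORM1 (1.15), CSF3 (0.71) and CXCL1 (0.54), and TGF-β1 lowered CCL2 (-0.89), CXCL1 (-0.84), PTX3 (-0.73) and PTGS2 (-0.49). IL-13 raised CSF3 (0.63) and lowered CXCL8 (-1.27) and IL1B (-0.82). The list median was 0.54 with TNF, 0.21 with IL-1β and 0.305 with OSM, against -0.002, -0.039 and 0.251 for the highest promoter-class peaks of all genes. Of 10 adipocyte targets, 6 had a promoter-class peak and the only call was CD36, raised with TGF-β1 (1.14, adjusted p = 0.0232 by limma), where the list median was 0.005. None of the 4 C/EBP start-site peaks was called with TNF.

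The motif letters were counted over all 154 C/EBP peaks and over all peaks of the table. The C/EBP letters were in 22.7% of them against 25.8% of all peaks, GAS in 13.6% against 17.2%, AP-1 in 19.5% against 25.7%, NF-κB in 59.1% against 50.5%, ISRE in 8.44% against 9.11%, STAT6 in 14.9% against 14.4%, the ATF4-C/EBP composite in 1.95% against 1.96% and CRE in 0.65% against 0.53%. The CEBPD start-site peak held the GAS and NF-κB letters, and the promoter-class peak upstream of it the NF-κB letters. Of the 3 peaks downstream, that at 2.78 kb held STAT6, that at 3.51 kb NF-κB and that at 4.52 kb C/EBP. The peak at 53.8 kb held C/EBP, GAS and AP-1, and that at 85.3 kb C/EBP, AP-1 and STAT6. NF-κB and ISRE were at 77.7 and 213.0 kb, and GAS and ISRE at 78.3 kb. STAT6 was at 110.4 kb, and NF-κB, CRE and STAT6 at 225.6 kb. Their part in the changes was not tested.

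The peaks most like the leading peak of each gene were found by Pearson's r over the 11 group means among 167197 to 167480 peaks of other genes with a mean of at least 1 per Mb, with no test since so many were searched. For the CEBPD-labelled peak at 3.51 kb they carried the labels XG (0.979), TCF4 (0.979), FIGN (0.978), CPO (0.976) and CELF6 (0.971). For the CEBPB start-site peak they included ORAI1 (0.958), EXD3 (0.956), LINC01144 (0.951) and SORT1 (0.946). For CEBPA at 9.11 kb they were RELL1 (0.964), LOC340512 (0.956), ISCA1 (0.951), TXLNA (0.949) and RAPGEF6 (0.948), and for CEBPG at 20.8 kb DUSP1 (0.976), IGF2BP3 (0.96), TGFBR2 (0.953), WWOX (0.952) and ACOT12 (0.948). All points share their libraries.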

How the data were processed

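ATAC-seq coverage was measured in 44 libraries of Ccd18-Co fibroblasts, 4 in each of 11 groups taken from the labels. Per the study's methods, the authors aligned reads with the ENCODE ATAC-seq pipeline to hg38 and called peaks with MACS2. The deposited table holds an unscaled signal, the base coverage summed over each of 407383 peaks of 500 bases, where a read of 75 bases adds its overlap. How these peaks were chosen is not given in the sources used here. The values are therefore not read counts, and no count model was run.

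Coverage was divided by the library total in Mb and scaled for composition with trimmed log ratios between libraries (trimming 30% of ratios and 5% of means). Log2 values after adding 0.5 were fitted with limma 3.58.1 in R 4.3.3, with group as the only term, a trended variance and 43 libraries, IL-6 replicate 4 being left out. The moderated tests are two-sided. In all, 231 peaks with a log2 mean under -3 were not tested. P-values were adjusted by Benjamini-Hochberg over the other 407152 peaks within each of 12 contrasts, and a moderated F-test compared the 11 groups. The floor of detection was 3 reads, which covers counting error only. The script was tested on simulated data with a set spread, not one taken from these libraries. For TNF against unstimulated, 26% of 100 peaks changed 2-fold and 100% of 100 changed 4-fold were called. In that simulation 8 unchanged peaks were called too. Few of its 99995 peaks were changed, so these shares do not give the power of the fits above. A change without a call is not taken as evidence of no change.

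The members and gene lists were chosen with earlier results of these data known. Named peaks were, per gene, the promoter-class peak with the highest mean and up to 4 peaks with the smallest F-test p among those called, which gave 15. A further 7 were added to the alternatives after their values were seen, and the other peaks named in the text were also chosen after their values were seen. Calls at those other peaks were not followed singly through the alternatives. The 13 alternatives covered scaling, pseudocount, filter, replicate block, GC content, quality weights and the library left out. Gene lists were set beside the highest promoter-class peak of each of 16765 genes, a background added after the lists were read. Each of the 43 libraries was also left out in turn. Python 3.11.15 with pandas 2.3.3, numpy 2.4.6 and matplotlib 3.10.9 was used for counts, sequences and plots. Not every peak found in the search for like patterns is reported here.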

Additional observations from a re-analysis of the deposited data

Results flagged for a closer look

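Among 220 groups of 4 libraries at the named peaks, 8 held a library whose gap to its nearest neighbour passed Dixon's 95% critical value, where chance gives about 1 in 20. Unstimulated replicate 1 was high at CEBPA -0.1 kb (7.03 coverage per Mb) and low at CEBPD +53.8 kb (3.72), and unstimulated replicate 3 was high at the CEBPB start site (19.0). IL1B replicate 1 was high at CEBPA +9.1 kb (13.7) and CEBPD +85.3 kb (6.24). TNF replicate 1 was low at CEBPD +4.5 kb (0.57) and CEBPD +77.7 kb (3.35). OSM replicate 3 at CEBPB -3.1 kb held 2.38.

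IL-6 replicate 4, which entered no comparison, lay above every unstimulated library at 10 of the 22 named peaks. At the start sites it held 12.7 at CEBPA -0.1 kb, 22.4 at CEBPB, 20.1 at CEBPD and 20.1 at CEBPG -0.1 kb. It held 12.1 at CEBPG +0.5 kb, 2.31 at CEBPG +16.6 kb and 1.60 at CEBPG -1.2 kb. At CEBPD-labelled peaks it held 4.28 at +4.5 kb, 10.4 at +77.7 kb and 4.08 at +85.3 kb. It lay below every unstimulated library at 3 of the 22, with 20.3 at CEBPD +110.4 kb, 3.23 at CEBPD +53.8 kb and 6.90 at CEBPD +3.5 kb. Its floor of 3 reads was 1.55 per Mb, so the CEBPG -1.2 kb value lay near it.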

How the results depend on the processing

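Of 57 calls at the named peaks, 32 passed under all 13 alternatives and without any single library, 25 were lost in at least 1, and 0 changed sign. The count of C/EBP peaks called moved by over 1.5 times in these cases. With OSM, 15 became 9 under median-of-ratios scaling and 8 under loess offsets. With TGF-β1, 12 became 7 under loess offsets. With IL-13, 3 became 6 among peaks with a mean of at least 1 per Mb and 1 under a GC correction. With IL-17A, 2 became 1 under the GC correction, with or without the replicate block. With IL-22, 1 became 0 under the GC correction and 2 with quality weights. With IL-6, 0 became 1 with quality weights and with all 44 libraries, and with IFNα 0 became 1 with quality weights. For TNF against IL-1β, 2 became 4 under median-of-ratios scaling, loess offsets and quality weights and 1 with a pseudocount of 0.1. For OSM against IL-6, 8 became 5 under library totals, median-of-ratios scaling, loess offsets and a factor from peaks covered in every library (chosen after seeing the data), 13 under the GC correction with the replicate block and 15 with quality weights. The causes were not tested.

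Leaving out single libraries gave 6 to 8 calls for IL-1β, 0 to 1 for IL-6, 2 to 3 for IL-13, 1 to 2 for IL-17A, 1 to 2 for IL-22, 0 to 1 for IFNα, 3 to 5 for IFNγ, 9 to 12 for TGF-β1, 8 to 11 for TNF, 12 to 15 for OSM, 1 to 3 for TNF against IL-1β, 4 to 7 for OSM against IL-6 and 33 to 38 for the F-test. Single libraries moved a count by over 1.5 times as follows. IL-6 rose to 1 without IL6 replicate 3, and IFNα rose to 1 without IFNA replicate 4. IL-17A fell to 1 without unstimulated replicate 3, IL17A replicate 2 or IL17A replicate 3. Without unstimulated replicate 3, IL-22 rose to 2 and IFNγ fell to 3. TNF against IL-1β fell to 1 without IL1B replicate 3 or TNF replicate 2. OSM against IL-6 fell to 4 without IL6 replicate 1, 2 or 3 or OSM replicate 1 or 2.

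The replicate block gave 7 calls for IL-1β, 0 for IL-6, 3 for IL-13, 2 for IL-17A, 1 for IL-22, 0 for IFNα, 5 for IFNγ, 12 for TGF-β1, 10 for TNF, 15 for OSM, 3 for TNF against IL-1β, 10 for OSM against IL-6 and 37 for the F-test. Correlations did not settle whether the numbers pair the samples. Same-numbered libraries of different groups correlated at -0.062 to 0.052, with 0 of the 39 pairs with an unstimulated library over 0.1. Of 43 libraries, 17 correlated best with their own number among the 4 numbers, and whether that share exceeds chance was not tested.

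Over all peaks, OSM calls fell from 24041 to 14444 under library totals, 13964 under median-of-ratios scaling, 14238 with the factor from covered peaks and 11411 under loess offsets, and TGF-β1 calls fell from 18257 to 11727 under loess offsets. OSM against IL-6 gave 9616, and 5532 to 5840 under those 4 scalings, 15452 under the GC correction with the block, 20561 with quality weights and 17940 with all 44 libraries. IL-22 gave 498, against 164 to 274 under the 4 scalings, 53 under the GC correction and 86 with the block added. IL-17A gave 189, against 314 under loess offsets and 124 with all 44 libraries. IL-6 gave 15, against 0 under the GC correction or a pseudocount of 2 and 263 with all 44 libraries. Of OSM against IL-6 calls 84.5% were raised, and 57.4% to 64.6% under the 4 scalings, and of TNF against IL-1β calls 81.8%, and 70.6% at the lowest. Low peaks were limited by depth, 3 reads being 0.286 to 1.55 per Mb.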
